A study of Rattus norvegicus with 6 samples.

Results

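The genes described here build the anchoring structures of heart muscle cells: the Z-disc, the M-band, the ends of the thin filament, the desmin network, the costamere and the intercalated disc. The list held 45 genes named by function. A gene was measured where a non-control probe carried a RefSeq accession that belongs to it, and its brightest probe stood for it. By this rule 31 of the 45 genes had a probe, all 31 passed the filter on dim probes, and they were part of the 11580 named genes tested. No probe was matched by accession to the other 14 genes, which were not analysed here: Tcap, Ldb3, Myoz2, Nebl, Mypn, Synpo2l, Ttn, Myom3, Lmod3, Unc45b, Tln2, Dag1, Dsp and Dsg2.

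RNA came from ventricular myocytes of Sprague-Dawley rat pups (labelled male) aged 1 to 2 days. Cells in both groups had been preplated to reduce fibroblasts, were plated in medium with 5-bromodeoxyuridine and were cultured for 36 h. They then received 50 nmol/L of either an siRNA against uc.323 (si-uc.323) or a scrambled siRNA (si-scramble) with Lipofectamine RNAiMAX in medium without serum for 3 h, and were kept in serum starvation for another 21 h. The transcript uc.323 is a non-coding RNA copied from an ultraconserved region, one of the genome segments that human, rat and mouse share without a base change, and the study asked what lies downstream of it in cardiomyocyte hypertrophy. Each group had 3 samples, labelled as independent experiments, with 1 single-colour array each. The labels do not say whether any of the samples shared a litter, so the p-values reflect only the spread seen among these samples, part of which may be technical. The siRNA is a single sequence, shown here because every value of the treated group depends on it, and the level of uc.323 itself was not analysed here.
si-uc.323 sense strand, 5′ to 3′, without its dTdT overhang: gguaaguaauuucagcaau

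In striated muscle, thin filaments of opposite polarity are cross-linked by alpha-actinin at the Z-disc, and thick filaments are cross-linked by myomesins at the M-band. Desmin filaments tie neighbouring Z-discs together. Costameres couple the outer Z-discs to the membrane through the dystrophin and the vinculin complexes, and intercalated discs join myocytes end to end through desmosomes and N-cadherin junctions. Small heat shock proteins and the co-chaperone Bag3 protect these structures from misfolding under mechanical load. Inherited defects in many of these genes cause cardiomyopathy.

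Levels are given as log2 intensity minus the 75th percentile of the same array, so that 0 is the 75th percentile of an array. Differences are log2 fold changes, si-uc.323 minus si-scramble, ± SE of the limma fit with n = 3 and 3 arrays. The share of the 30367 probes well above background was 71.8% to 73.9% among the 4 slide 1 arrays and 78.2% and 86.5% for the 2 slide 2 arrays. A slide here means arrays that share a scan identifier in the file headers. Slide 1 held the 3 si-scramble arrays with si-uc.323 replicate 1, and slide 2 held the other si-uc.323 replicates, so only replicate 1 compares the groups within a slide. The number of arrays limits the precision.

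None of the 31 structural genes was called higher or lower in the limma fit (Benjamini-Hochberg adjusted p under 0.05 over all features; lowest adjusted p = 0.0807). Of all genes tested 6.14% were called, 3.26% higher and 2.88% lower. At an unadjusted p under 0.05 there were 5 of the 31 (16.1%), against 30.1% of all genes. Of these 5, Trim54 and Capzb had positive and Cryab, Synm and Dmd negative log2 fold changes. The groups were fully separate, all 3 si-uc.323 values lying on one side of all 3 si-scramble values, for 9 of the 31 (29%), against 39.1% of all genes. In 5 of these 9 si-uc.323 was higher (20.1% of all genes) and in 4 lower (19% of all genes). A log2 fold change above 0 was seen in 17 of the 31, against 52.7% of all genes. With the arrays' medians set equal instead, 10 of the 31 were above 0, since Des, Myom1, Myot, Pdlim7, Pkp2, Trim55 and Vcl turned below it. The log2 fold changes of the 31 ran from -0.44 (Pdlim3, a dim probe) to 0.52 with a median of 0.06, and all genes had a median of 0.02. Their median size, signs ignored, was 0.19, against 0.23 over all genes. Only 1 of the 31 (3.2%) reached a log2 fold change of 0.5 either way, against 15.5% of all genes. These shares describe a list chosen with earlier results of these data known, and they were not tested against other lists. In bulk RNA, fewer cells of a type and less RNA per cell cannot be told apart.

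The unadjusted 95% interval of the log2 fold change lay wholly within a 1.5-fold change either way for 18 of the 31 genes (58.1%) and within a 2-fold change for 30 (96.8%), against 49.5% and 88.8% of all genes. The exception at 2-fold was Pdlim3, a dim probe. For the remaining 13 genes a change of 1.5-fold in at least 1 direction lay inside the interval, so that a missed call does not show that the level was the same. The median SD between arrays of a group was 0.10 in si-scramble and 0.19 in si-uc.323 for the 31 genes, and 0.10 and 0.21 for all genes.

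**Figure D1:**
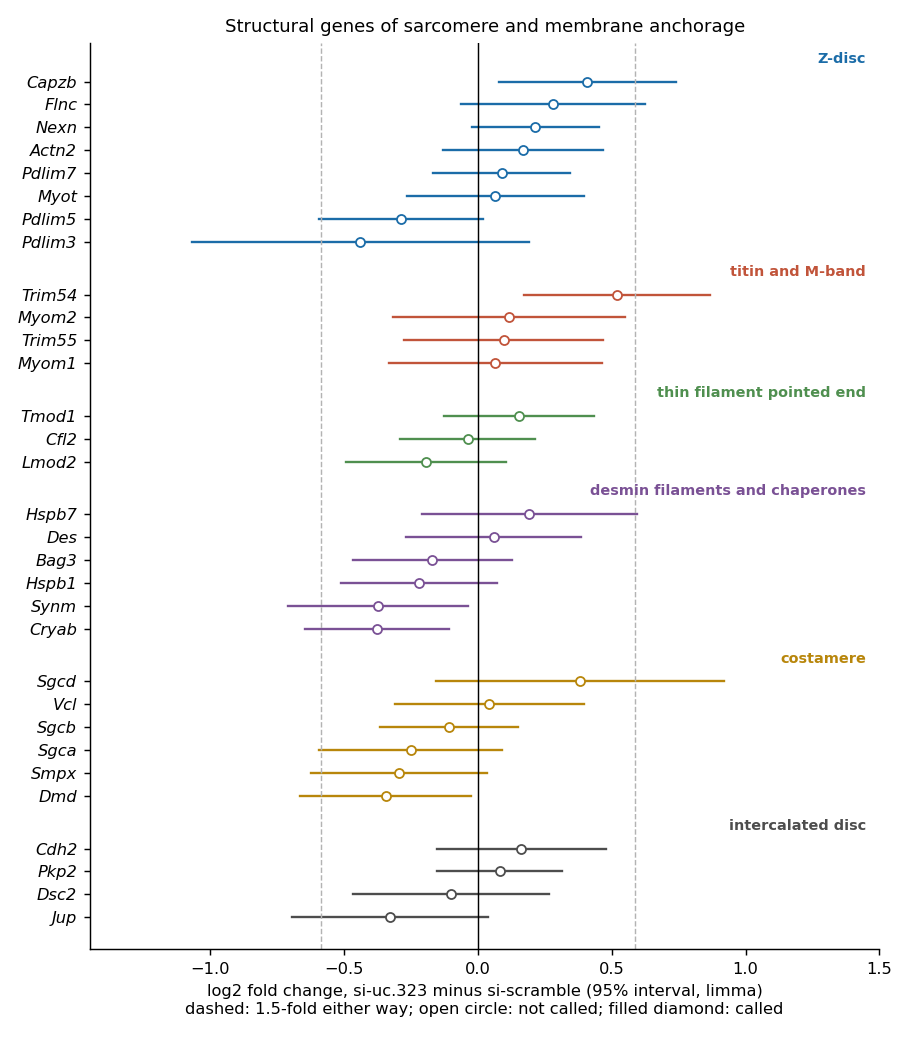
Each point is the log2 fold change (si-uc.323 minus si-scramble, 3 arrays per group) of 1 of the 31 structural genes measured, grouped by compartment, and each line is its unadjusted 95% interval from limma. Dashed lines mark a 1.5-fold change. All symbols are open because no gene was called, and the intervals of Trim54, Capzb, Cryab, Synm and Dmd do not reach 0.

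**Figure D2:**
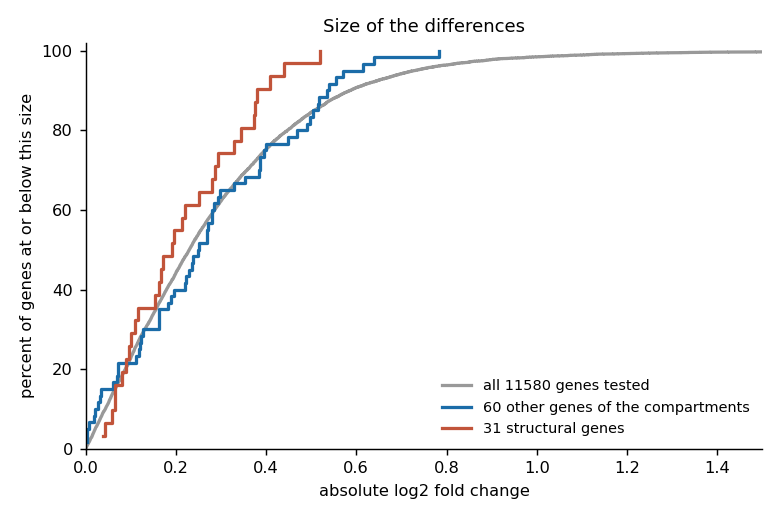
The curves give the percent of genes (y axis) whose absolute log2 fold change is at or below the value on the x axis, for the 31 structural genes, 60 other genes of the same compartments and all 11580 genes tested. The curve of the 31 genes ends at 0.52, while 16.7% of the 60 other genes and 15.5% of all genes lie at 0.5 or beyond.

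At the Z-disc, 8 of 14 genes were measured and none passed the test, with 6 log2 fold changes above 0 and 2 below, and a median of 0.13. Capzb encodes the beta subunit of CapZ, which caps the barbed end of the thin filament at the Z-disc. Its level was -0.34, -0.34 and -0.57 on si-scramble replicates 1, 2 and 3 and -0.13, -0.11 and 0.22 on si-uc.323 replicates 1, 2 and 3. All 3 si-uc.323 values lay above all si-scramble values, and replicate 3 was the highest. The log2 fold change was 0.41 ± 0.14 with an interval of 0.08 to 0.74 (adjusted p = 0.117). Pdlim3, an alpha-actinin-binding PDZ-LIM protein, had a larger difference on a dim probe. Its level was -5.47, -5.93 and -5.70 with si-scramble and -6.20, -6.64 and -5.58 with si-uc.323, where it was well above background on 2 of the 3 arrays. Pdlim3 thus passed the filter only through si-scramble, the group where its mean was higher. The groups overlapped, since si-uc.323 replicate 3 lay within the si-scramble range, and the log2 fold change was -0.44 ± 0.27 (adjusted p = 0.325).

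Actn2, the sarcomeric alpha-actinin itself, read -0.12, -0.21 and -0.16 with si-scramble and 0.01, -0.19 and 0.18 with si-uc.323. The values of the groups overlapped, and the interval of the log2 fold change was -0.13 to 0.47. Nexn, an actin-binding Z-disc protein, was 3.34, 3.28 and 3.31 against 3.49, 3.58 and 3.51, groups that did not overlap but differed by only 0.21 ± 0.10 (adjusted p = 0.214). Flnc, the muscle filamin that links the Z-disc to the membrane, also had separate groups (0.28 ± 0.15, adjusted p = 0.257). There si-uc.323 replicate 1, at -1.06, lay next to si-scramble replicate 1, at -1.08. Pdlim5, another PDZ-LIM adaptor, was lower by 0.29 on average (log2 fold change -0.29 ± 0.13, adjusted p = 0.203) with overlapping groups. Pdlim7 (0.09 ± 0.11) and Myot, the alpha-actinin partner myotilin (0.07 ± 0.14), had intervals of -0.17 to 0.34 and -0.27 to 0.40. For Myot the sign turned under each of 5 other scalings or value sources.

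At the M-band and among the titin-associated ubiquitin ligases, 4 of 6 genes were measured, and none passed. All 4 log2 fold changes were above 0 with a median of 0.11, but Myom1 and Trim55 fell below 0 with the arrays' medians set equal. Trim54, also called MuRF3, is a RING-finger protein that associates with microtubules and the sarcomere. It read 0.51, 0.31 and 0.27 on the si-scramble arrays and 0.67, 0.86 and 1.12 on the si-uc.323 arrays. The groups did not overlap, though the gap between si-scramble replicate 1 and si-uc.323 replicate 1 was smaller than the range within either group. Its log2 fold change of 0.52 ± 0.15, or 1.43-fold, was the largest of the 31 genes, with an interval of 0.17 to 0.87 (adjusted p = 0.0807). The gene passed with a trended and robust prior (adjusted p = 0.0463) and with array weights (log2 fold change 0.40, adjusted p = 0.046). With array weights 3399 genes were called in all, against 711 in the reported fit. The count of all genes called with the trended and robust prior is not given here. In the other settings tried Trim54 did not pass (adjusted p between 0.0594 and 0.456). When the slide was fitted as a block, so that replicate 1 alone gives the contrast, the log2 fold change was 0.31. Its relative Trim55, or MuRF2, had overlapping groups and a log2 fold change of 0.10 ± 0.16.

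The myomesins, which cross-link thick filaments at the M-band, lay near 0. Myom2 was -0.52, -0.62 and -0.61 with si-scramble and -0.32, -0.87 and -0.21 with si-uc.323. Replicate 2 of si-uc.323 was below and replicates 1 and 3 were above every si-scramble array, so that the SD was 0.06 in one group and 0.36 in the other. The log2 fold change was 0.12 ± 0.18 (adjusted p = 0.716). For Myom1 it was 0.06 ± 0.17, with an interval of -0.33 to 0.46.

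Among genes of the thin filament's pointed end and of actin turnover, 3 of 4 were measured and none passed, and for all 3 the interval lay within a 1.5-fold change either way. Lmod2, leiomodin 2, which lengthens cardiac thin filaments, was 3.16, 3.05 and 3.32 with si-scramble and 3.08, 3.03 and 2.83 with si-uc.323. The groups overlapped and the log2 fold change was -0.20 ± 0.13 (adjusted p = 0.354). Tmod1, tropomodulin 1, which caps the same end, was -0.02, 0.08 and -0.13 against 0.01, 0.14 and 0.24, also overlapping (0.15 ± 0.12, adjusted p = 0.436). Cfl2, the muscle cofilin that severs actin, had a log2 fold change of -0.04 ± 0.11 on its brighter probe.

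In the desmin network and its chaperones 6 of 7 genes were measured, none passed, 4 of the 6 log2 fold changes were below 0 and their median was -0.20. Cryab, the small heat shock protein alpha-B-crystallin that binds desmin, read 5.64, 5.56 and 5.63 with si-scramble and 5.32, 5.29 and 5.08 with si-uc.323. Every si-uc.323 array lay below every si-scramble array. The log2 fold change was -0.38 ± 0.11, with an interval of -0.65 to -0.11 and an adjusted p of 0.0927. With array weights Cryab passed (-0.33, adjusted p = 0.0256), as did 3399 genes in all. Synm, the intermediate filament protein synemin that joins desmin to costameres, was 1.83, 1.70 and 1.81 against 1.49, 1.59 and 1.15. Its groups did not overlap either (-0.37 ± 0.14, adjusted p = 0.146), but its dimmer probe read in the other direction.

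Hspb1, the small heat shock protein 27, was 2.76, 2.76 and 2.73 with si-scramble and 2.57, 2.33 and 2.69 with si-uc.323. The si-scramble arrays were nearly equal, with an SD of 0.02, and the si-uc.323 arrays lay below them with an SD of 0.18 (-0.22 ± 0.12, adjusted p = 0.291). Bag3, the co-chaperone that works with small heat shock proteins at the Z-disc, had overlapping groups (-0.17 ± 0.13, adjusted p = 0.416). Des, desmin itself, was 2.35, 2.07 and 2.35 against 2.49, 2.16 and 2.29, a log2 fold change of 0.06 ± 0.14 with an interval of -0.27 to 0.39. Hspb7, the cardiovascular small heat shock protein, had a log2 fold change of 0.19 ± 0.17. Thus the members below 0 in this group were Cryab, Synm, Hspb1 and Bag3, and those above 0 were Des and Hspb7. The sign of each of these genes except Des was the same under all 5 other scalings or value sources; that of Des turned with the median shift.

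At the costamere 6 of 8 genes were measured and none passed, with 4 log2 fold changes below 0, 2 above and a median of -0.18. Dmd, dystrophin, which links cortical actin to the membrane complex, was 1.05, 0.85 and 1.06 with si-scramble and 0.75, 0.75 and 0.43 with si-uc.323. All si-uc.323 arrays were lower on this probe, and the log2 fold change was -0.34 ± 0.14 (adjusted p = 0.153). Of its sarcoglycan partners, Sgca, alpha-sarcoglycan, had a log2 fold change of -0.25 ± 0.14 and Sgcb, beta-sarcoglycan, of -0.11 ± 0.11, both with overlapping groups. Sgcd, delta-sarcoglycan, was -2.55, -2.64 and -2.56 with si-scramble and -2.08, -2.73 and -1.80 with si-uc.323. Replicates 1 and 3 of si-uc.323 lay above all si-scramble arrays and replicate 2 lay below them. The log2 fold change was 0.38 ± 0.23 (adjusted p = 0.319). Without si-uc.323 replicate 2 it was 0.64 and passed (adjusted p = 0.0351), and without replicate 3 it was 0.18 (adjusted p = 0.63). That pass left out the treated array that lay below the si-scramble arrays. It was not set against the share of all genes called without that array.

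Smpx, the small X-linked muscle protein of the costamere, was 3.39, 3.09 and 3.32 against 3.16, 2.93 and 2.82, with overlapping groups (-0.29 ± 0.14, adjusted p = 0.218). Vcl, vinculin, which couples integrins to actin, read 2.42, 2.47 and 2.51 against 2.64, 2.21 and 2.67. Again si-uc.323 replicate 2 was the lowest of the 6 arrays and replicates 1 and 3 the highest (0.04 ± 0.15, interval -0.31 to 0.39).

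At the intercalated disc 4 of 6 genes were measured and none passed; 2 were above and 2 below 0, with a median of -0.01. Jup, plakoglobin, which sits in both desmosomes and adherens junctions, was -0.44, -0.29 and -0.42 with si-scramble and -0.76, -0.96 and -0.43 with si-uc.323. Replicate 3 of si-uc.323 fell within the si-scramble range, and the log2 fold change was -0.33 ± 0.16 (adjusted p = 0.217). Cdh2, N-cadherin, was 1.63, 1.56 and 1.52 against 1.74, 1.53 and 1.94, overlapping through si-uc.323 replicate 2 (0.16 ± 0.13, adjusted p = 0.464). Pkp2, the desmosomal plakophilin 2, had non-overlapping groups that were close together, 1.73, 1.69 and 1.70 against 1.78, 1.83 and 1.75. Its log2 fold change was 0.08 ± 0.10 with an interval of -0.15 to 0.31. Dsc2, the desmosomal cadherin desmocollin 2, had a log2 fold change of -0.10 ± 0.16.

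**Figure D3:**
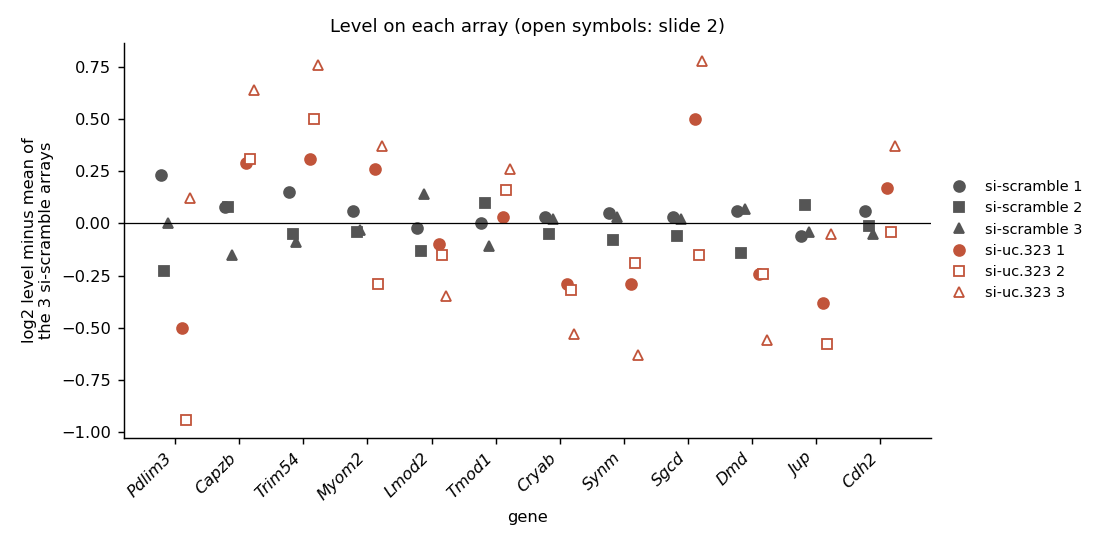
For the 2 structural genes of each compartment with the largest differences, the y axis gives the log2 level on each array minus the mean of the 3 si-scramble arrays. Grey symbols are si-scramble, red symbols are si-uc.323, the shape gives the replicate and open symbols mark slide 2. The groups separate for Capzb, Trim54, Cryab, Synm and Dmd, and si-uc.323 replicate 2 stands below replicates 1 and 3 for Pdlim3, Myom2, Sgcd, Jup and Cdh2.

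Over the 31 genes the median difference from the si-scramble mean was 0.03 on si-uc.323 replicate 1 (17 genes above), -0.13 on replicate 2 (9 above) and 0.08 on replicate 3 (19 above). Over all genes tested it was -0.002, -0.001 and 0.10. The si-scramble arrays themselves ranged from -0.05 (8 genes above, replicate 2) to 0.05 (24 above, replicate 1). The medians of the treated arrays thus lay on both sides of 0. Within slide 1, where si-uc.323 replicate 1 alone meets the 3 controls, the fold changes are those of replicate 1 given above and add no further evidence. None of the 31 genes passed there, in a limma fit where the spread comes from the controls alone and the lone treated array is assumed to vary like them.

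For 6 of the genes, Cfl2, Dmd, Pdlim7, Sgcb, Synm and Vcl, a pair of probes could be compared, and for 5 of the 6 the probes differed in sign. Over all 1904 genes with several probes tested, the probes differed in sign for 42.2%. The brighter Synm probe read -0.37 and the dimmer 0.22. The brighter Dmd probe read -0.34 and the dimmer 0.18, and these probes carry different RefSeq accessions of the gene. The brighter Pdlim7 probe read 0.09 and the dimmer -0.31. For Sgcb the values were -0.11 and 0.32, for Cfl2 -0.04 and 0.33, and for Vcl 0.04 and 0.26. No probe of the 6 genes passed with every probe tested on its own (lowest adjusted p = 0.114, the dimmer Cfl2 probe). The dimmer probes of Synm and Dmd lay far lower, at a mean level of -5.07 against 1.59 for Synm and -3.39 against 0.82 for Dmd. That of Cfl2 lay less far below, at -1.41 against -0.33. All 6 dimmer probes were still well above background on every array. In the limma fit of every probe, the dimmer probes of Cfl2, Pdlim7 and Sgcb had unadjusted p of 0.021, 0.0409 and 0.0482. Their brighter probes were not under 0.05, while for Synm and Dmd only the brighter probe was. The differences of Synm and Dmd described above are therefore those of the brighter probe alone.

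**Figure D4:**
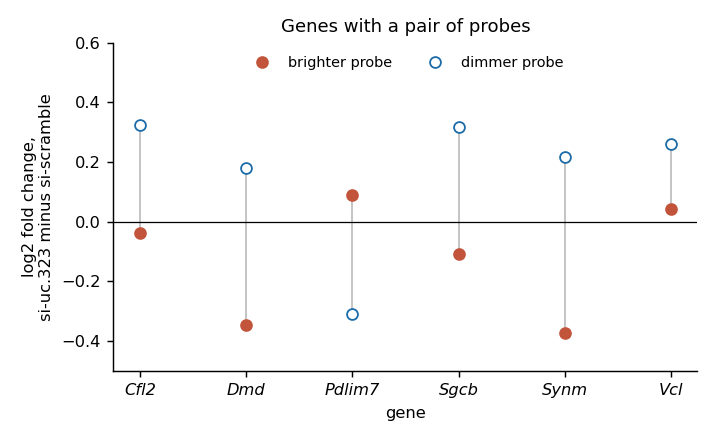
The y axis gives the log2 fold change (si-uc.323 minus si-scramble, 3 arrays per group) of the brighter probe (filled) and the dimmer probe (open) of the 6 structural genes with a pair of probes. The points of a gene lie on opposite sides of 0 for 5 of the 6, Vcl being the exception.

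A wider set of 78 other genes of the same compartments was read beside the list, of which 62 had a probe and 60 were tested. Of the 60, 2 were called lower and 0 higher; 21 (35%) had an unadjusted p under 0.05, against 30.1% of all genes, and the median log2 fold change was 0.07. A log2 fold change of 0.5 either way was reached by 16.7% of the 60, against 15.5% of all genes, and the groups were fully separate for 50% against 39.1%. The share called lower among all genes was 2.88%. Lims2, the PINCH-2 adaptor that joins integrin-linked kinase to focal adhesions and costameres, read -1.02, -0.82 and -0.89 with si-scramble and -1.79, -1.76 and -1.54 with si-uc.323. The groups were well apart, and the log2 fold change was -0.78 ± 0.12 (adjusted p = 0.0267). Its relative Lims1, chosen after its value was seen, had a log2 fold change of 0.33 ± 0.13 and did not pass (adjusted p = 0.165).

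Myoz1, calsarcin-2 of the Z-disc, known mainly from fast skeletal muscle, was -3.58, -3.58 and -3.49 with si-scramble and -4.20, -4.08 and -3.93 with si-uc.323. All si-uc.323 arrays were lower, by -0.52 ± 0.12 (adjusted p = 0.0494), just past the threshold. Both calls were lost when any si-scramble array was left out (adjusted p between 0.103 and 0.143 for Lims2 and between 0.157 and 0.222 for Myoz1). They were also lost when dim probes were kept (adjusted p = 0.1 for Lims2 and 0.134 for Myoz1, with the same log2 fold changes), a limma setting in which 0 of the 15157 genes tested were called and 3110 had an unadjusted p under 0.05. With the slide as a block the log2 fold change was -0.88 for Lims2 (adjusted p = 0.156) and -0.65 for Myoz1 (adjusted p = 0.194). Myoz1 also failed to pass with normexp background correction (-0.39, adjusted p = 0.0663) and without si-uc.323 replicate 1 (adjusted p = 0.0883) or replicate 3 (0.051).

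Outside the costamere, where Lims2 differed most, the gene with the largest difference in each compartment of this wider set did not pass. Lmcd1, a LIM protein of the Z-disc region, had a log2 fold change of 0.61 ± 0.15 (adjusted p = 0.06). For Nbr1, an autophagy receptor that binds the titin kinase region, it was 0.57 ± 0.15 (adjusted p = 0.0672). Cap2, which recycles actin, had 0.55 ± 0.15 (adjusted p = 0.068) and Nes, the intermediate filament protein nestin, -0.52 ± 0.14 (adjusted p = 0.0738). Ctnna1, the alpha-catenin of adherens junctions, had 0.50 ± 0.19 (adjusted p = 0.143). Lmcd1, Cap2, Nbr1 and Nes passed with a trended and robust prior (adjusted p between 0.0332 and 0.0431). These passes were not set against the share of all genes called with that prior. After cyclic loess normalization Lmcd1 also passed in limma (0.56, adjusted p = 0.041), with 1182 genes called in all, against 711 in the reported fit. With the median shift Nes passed (-0.62, adjusted p = 0.0495), with 783 called in all. Cap2 and Nbr1 passed with neither scaling.

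**Figure D5:**
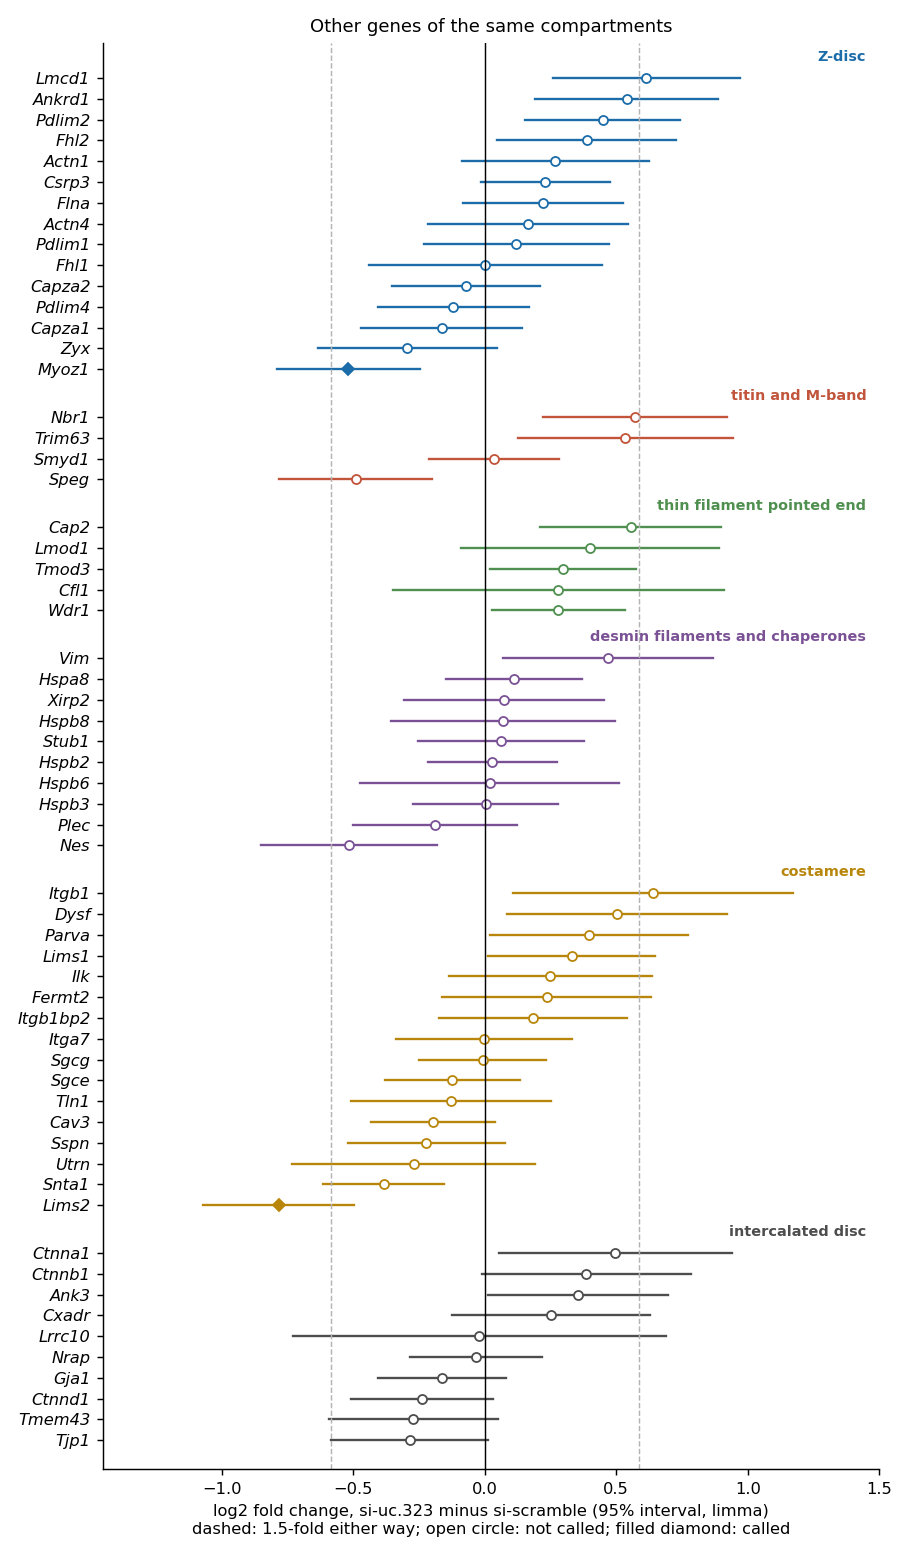
Log2 fold changes (si-uc.323 minus si-scramble, 3 arrays per group) of 60 other genes of the same compartments, with unadjusted 95% intervals from limma; dashed lines mark a 1.5-fold change. Filled diamonds mark the 2 called genes, Lims2 and Myoz1, both below 0.

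The promoters of the structural genes were read for the binding letters of muscle and heat shock factors. RefSeq windows of build GRCr8, from 250 bases before to 50 bases after the start, were given for 36 of the 45 genes. Serum response factor binds the CArG box and the MEF2 proteins bind an A/T-rich site, and both act at many muscle genes. TEAD factors bind CATTCC, and heat shock factors bind inverted GAA units, searched here as GAANNTTC, all on both strands. The CArG box was found in 3 of 36 windows (8.3%; Dmd, Ldb3 and Nebl) against 1.6% of all 27457 promoters. The MEF2 site was found in 6 (16.7%; Hspb7, Myom3, Myoz2, Smpx, Synpo2l and Ttn) against 3.4%. CATTCC was in 7 (19.4%; Flnc, Hspb1, Mypn, Nexn, Trim54, Ttn and Vcl) against 13.9% and GAANNTTC in 2 (5.6%; Bag3 and Hspb1) against 8.3%. These are matches of letters, not tested for binding, and the shares are descriptive.

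The windows below are those of the measured genes with a CArG box, MEF2 site or GAANNTTC and, of the genes with CATTCC, of Trim54 alone, as the gene with the largest difference. Each is on the gene's own strand, 5′ to 3′, ends before the start of transcription, and has the motif named beside it in capitals.
Trim54, CATTCC on the other strand, chr6:30978626-30978691 (minus strand): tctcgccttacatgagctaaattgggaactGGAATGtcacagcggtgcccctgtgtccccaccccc
Dmd, CArG box, chrX:51205958-51206027 (plus strand): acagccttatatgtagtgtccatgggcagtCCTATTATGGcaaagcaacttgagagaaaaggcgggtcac
Smpx, MEF2 site, chrX:41107199-41107268 (minus strand): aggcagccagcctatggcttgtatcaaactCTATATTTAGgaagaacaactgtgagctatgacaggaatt
Hspb7, MEF2 site, chr5:159010633-159010702 (plus strand): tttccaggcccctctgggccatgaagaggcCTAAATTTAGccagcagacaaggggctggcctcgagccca
Hspb1, GAANNTTC at 2 positions, chr12:26432373-26432460 (minus strand): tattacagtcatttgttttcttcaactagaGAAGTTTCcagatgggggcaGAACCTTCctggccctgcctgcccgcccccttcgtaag
Bag3, GAANNTTC, chr1:192533298-192533365 (plus strand): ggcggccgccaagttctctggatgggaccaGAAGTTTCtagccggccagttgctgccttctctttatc
The first match lies 186 bases before the start in Trim54, 98 in Dmd, 101 in Smpx, 96 in Hspb7, 129 in Hspb1 and 132 in Bag3. The pair of genes with GAANNTTC, Hspb1 and Bag3, had log2 fold changes of -0.22 and -0.17. The genes with a MEF2 site that were measured, Hspb7 and Smpx, had 0.19 and -0.29, which lie on opposite sides of 0.

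All 9 cardiomyocyte markers were well above background on every array, and their summed linear level was 304 to 320 times the 75th percentile of the array with si-scramble and 252 to 291 times with si-uc.323. Among them Actc1, cardiac actin, was called lower (-0.63 ± 0.11, adjusted p = 0.0314), as were 2.88% of all genes. Of the 9, 6 were below 0 and 5 had fully separate groups, all lower with si-uc.323 (19% of all genes). The 8 fibroblast markers were also above background throughout, at 124 to 134 with si-scramble and 126 to 157 with si-uc.323. Postn, periostin, was called higher, as were 3.26% of all genes. Of the 8, 6 were above 0 and 2 had fully separate groups, both higher with si-uc.323 (20.1% of all genes). The smooth muscle and pericyte markers summed to 39.6 to 43.7 against 41.6 to 49.5. Of the 7, 6 were above 0 (52.7% of all genes) and 3 were fully separate and higher (20.1% of all genes). The endothelial markers summed to 11.0 to 12.4 against 5.52 to 8.56. None of the smooth muscle and pericyte or the endothelial markers was called. Most of the endothelial sum came from Kdr, the VEGF receptor 2, at 3.51, 3.28 and 3.52 on the log2 scale with si-scramble and 2.90, 2.90 and 2.23 with si-uc.323 (-0.76 ± 0.20, adjusted p = 0.068). Of the 5 endothelial markers tested, Kdr, Pecam1 (-0.30) and Cdh5 (-0.10) were below 0, Pecam1 and Cdh5 with overlapping groups. Tek (0.46) was above 0 but dim, with a si-scramble mean of -5.34. Tie1, with a si-scramble mean of -7.10, was well above background with si-uc.323 only. It was kept through that group alone, so its sign was not read. Leukocyte markers, none of them called, summed to 15.7 to 16.4 against 13.8 to 17.8. The erythroid markers, with Hbb called lower, summed to 0.89 to 1.13 against 0.62 to 0.68. The epicardial (1.98 to 2.25 against 1.64 to 1.85), Schwann cell and neural (0.75 to 1.15 against 0.75 to 0.91) and skeletal myogenic lists (0.13 to 0.15 against 0.12 to 0.19) had no called gene. The part of these differences in the values of the structural genes was not tested. Of the structural genes, Vcl, Flnc, Cdh2, Pdlim5, Pdlim7, Synm, Hspb1 and Capzb are among those known to be expressed in other cell types of the heart. This list is not complete, and a gene left out of it need not be restricted to myocytes.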

How the data were processed

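The deposited scanner files hold linear spot intensity values that Agilent Feature Extraction 11.0.1.1 had corrected for background and spatial trend array by array, per the file headers and the submitters' processing notes. Arrays were not normalized to each other. The authors' series table gives log2 values, and its 6 columns have the same median, 6.51, as quantile normalization gives; its making is not given in the sources used here, and it served as an alternative only. The file headers map probes to build rn4.

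Control spots and 322 to 594 outlier spots of 42877 per array were left out. Log2 intensities were shifted by the array's 75th percentile (1182 to 1775 intensity units) and averaged per probe. Of 30367 probes, 18005 matched 1 gene by unversioned accession in a RefSeq table of assembly GRCr8 and 12362 had no gene. Probes with a value on all arrays and well above background on all 3 arrays of a group were kept, the brightest per gene, giving 19920 features. The group difference was fitted without covariates by limma 3.58.1 (lmFit, eBayes; R 4.3.3) and the Benjamini-Hochberg adjustment ran across every feature. The code of the fit was run on simulated data with the same spread in both groups and no slide effect. That run does not show how the fit does on these arrays. The members, compartments and lists were chosen with earlier results of these data known. The rule for giving values on each array was called members and the 2 largest differences per compartment. Such values are also given for Actn2, Nexn, Hspb1, Des, Smpx, Vcl and Pkp2, which the rule did not select. Of the other compartment genes, the rule named those called and the largest per compartment. Figures used matplotlib 3.10.9.

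Alternatives were normexp background correction (offset 50, on median spot intensity), quantile, cyclic loess and median scaling, the series values, other filters and probe rules, array weights, a trended and robust prior, a block for replicate or slide, slide 1 alone and leaving out each array.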

Additional observations from a re-analysis of the deposited data

How the results depend on the processing

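Under 17 of 20 alternatives none of the 31 structural genes was called, as in the reported fit (limma; 2 higher and 3 lower at an unadjusted p under 0.05). With array weights 3 were called higher (Trim54, Capzb and Sgcd) and 4 lower (Cryab, Synm, Jup and Pdlim5); there the weights of si-uc.323 replicates 2 and 3 were 0.293 and 0.268 and 3399 genes were called in all, against 711. With a trended and robust prior 1 was called higher (Trim54). Leaving out each array in turn gave 0 to 1 called higher and 0 called lower, the 1 being Sgcd without si-uc.323 replicate 2; over all genes the calls ranged from 0 to 1859. The median log2 fold change of the list lay between -0.05 and 0.07 over all settings (reported 0.06) and was below 0 in 4 of them. A shift to a common median moved the median of all genes from 0.02 to -0.08 and left 10 of the 31 genes above 0, against 17. The sign of 20 of the 31 genes was the same in every setting that gave a value, and that of 23 under the 5 other scalings or value sources.

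With the replicate number as a block 0 members were called higher and 0 lower, and 404 genes in all; Lims2 passed (adjusted p = 0.0437) and Myoz1 did not (0.0789). Deviations of same-numbered arrays correlated at 0.20, 0.39 and -0.12, so the numbers were not taken as pairs. In the slide block and slide 1 fits, where the contrast rests on si-uc.323 replicate 1, 3 and 0 genes were called in all; the cause of the other lost calls was not tested. Signal over background limits Pdlim3 most, the only structural gene not well above background on every array.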
